A study of Arabidopsis thaliana with 12 samples.

Results

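The U2 small nuclear RNA (snRNA) genes described here are U2.3 (AT3G57765), U2.4 (AT3G56825), U2.5 (AT5G09585) and U2.7 (AT5G61455). They are 4 of the 36917 gene IDs counted in Arabidopsis seedlings, and they were picked by ID with their counts in these libraries already known. Their values are therefore given as a description. Calls of a fit across all genes are counted beside the share of all genes called, and nothing is read from them. RNA was sequenced from whole 4-d-old seedlings of 4 genotypes with 3 libraries each. The genotypes were wild type (Col-0), the gun1-103 mutant (gun1), the fug1-3 mutant (fug1) and the gun1-103 fug1-3 double mutant (gun1 fug1), so that each mutated gene is represented by 1 allele. GUN1 is a plastid protein of plastid-to-nucleus signalling, and FUG1 is the plastid translation initiation factor 2. All seedlings grew at 22 °C with 16 h of light and 8 h of dark on medium with 1% sucrose. Total RNA was used for an Illumina TruSeq library, and the step that removed or selected RNA classes is not given in the sources used here.

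U2 is 1 of the RNAs of the spliceosome, the particle that removes introns from pre-mRNA. It pairs with the branch site of the intron, the place whose adenosine starts the first step of splicing, and it works as a particle with the Sm ring and the SF3a and SF3b proteins. Plant U2 genes are short, are read by RNA polymerase II without introns, carry an upstream sequence element and a TATA box at a fixed spacing, and give a capped RNA without a poly(A) tail.

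The 4 RNA sequences are shown first, because their likeness limits what a count for each gene can mean. They were read from the RefSeq TAIR10.1 genome, and the submitters' processing notes name TAIR10. U2.5 lies at chr5:2975014-2975208 on the plus strand, and its annotated locus is exactly those 195 bases. U2.3 lies at chr3:21397422-21397616, U2.4 at chr3:21041820-21042013 and U2.7 at chr5:24713407-24713601, all on the minus strand and each inside a longer annotated locus of 871, 883 and 831 bases. Sequences are given 5′ to 3′ as DNA letters. In U2.5 the capitals mark GTAGTA, the stretch that pairs with the branch site, and in the others they mark every base that differs from U2.5.
U2.5: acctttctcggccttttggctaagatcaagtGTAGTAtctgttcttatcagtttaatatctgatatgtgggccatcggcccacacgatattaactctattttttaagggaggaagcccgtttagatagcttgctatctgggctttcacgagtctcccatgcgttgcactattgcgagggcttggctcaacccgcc
U2.3: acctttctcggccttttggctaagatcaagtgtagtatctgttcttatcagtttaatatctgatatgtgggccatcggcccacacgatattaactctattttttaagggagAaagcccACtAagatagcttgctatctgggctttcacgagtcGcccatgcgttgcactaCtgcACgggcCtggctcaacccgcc
U2.4: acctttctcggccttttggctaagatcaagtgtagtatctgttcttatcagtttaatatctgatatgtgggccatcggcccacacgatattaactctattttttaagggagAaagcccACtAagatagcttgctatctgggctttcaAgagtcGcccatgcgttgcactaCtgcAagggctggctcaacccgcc
U2.7: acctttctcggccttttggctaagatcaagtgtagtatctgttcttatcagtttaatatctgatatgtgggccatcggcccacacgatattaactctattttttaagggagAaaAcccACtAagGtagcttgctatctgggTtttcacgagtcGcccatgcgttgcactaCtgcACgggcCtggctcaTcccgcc
The first 111 bases, with the branch-site motif at position 32, are identical in all 4 genes. Every difference lies in the 3′ part of the RNA. Counted from 1 at the 5′ end of U2.5, U2.3, U2.4 and U2.7 share the substitutions G112A, G119A, T120C, T122A, T154G, T171C and G175A. U2.3 and U2.7 also share A176C and T181C. Besides these, U2.4 carries C148A and lacks 1 base, and U2.7 carries G115A, A125G, C142T and A189T. Identity between pairs ran from 93.3% for U2.5 and U2.7 to 98.5% for U2.3 and U2.4.

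**Figure D1:**
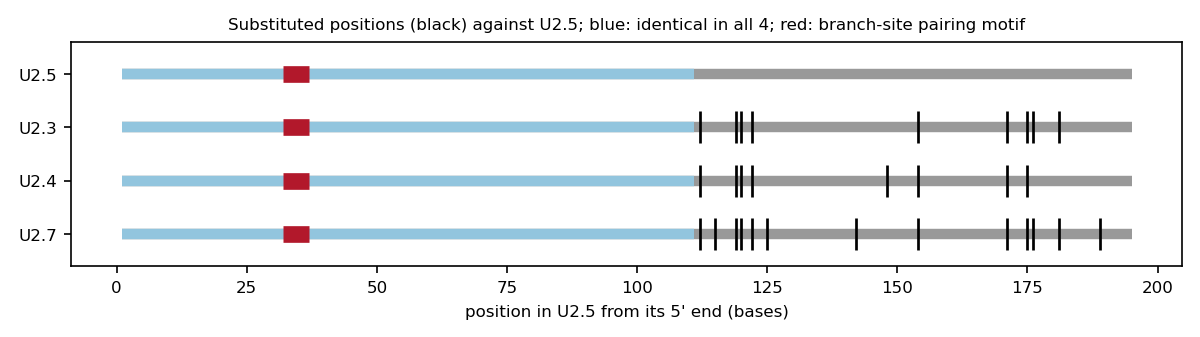
Position along U2.5 (bases from its 5′ end, horizontal axis) of the bases substituted in U2.3, U2.4 and U2.7 (9, 8 and 13 black ticks), with the 111 leading bases shared by all 4 genes in blue and the branch-site pairing motif in red. The missing base of U2.4 is not drawn, and all ticks lie right of the shared stretch.

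The genome holds 16 full U2 copies, counted as alignments of at least 180 bases with at least 90% identity to U2.5, and 2 partial ones. Of the windows of 50 bases inside each RNA, 41 of 146 in U2.3, 45 of 145 in U2.4, 77 of 146 in U2.5 and 81 of 146 in U2.7 occur in no other of these copies. With windows of 100 bases the numbers were 48 of 96, 47 of 95, 77 of 96 and 81 of 96. How long the reads were, and where a read with several matching places was counted, is not given in the sources used here. The counts of single U2 genes are accordingly uncertain. AT3G57770, a protein-coding gene on the opposite strand, overlaps the first 75 bases of the U2.3 RNA and the locus upstream of it. The ratio of the U2.3 count to the AT3G57770 count stayed within 0.846 to 1.28 over the 12 libraries. Whether strand was used in counting is not given, so reads of U2.3 and of that gene cannot be told apart.

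The promoter region of each gene is shown next, as a description. Each line holds the 100 bases before the first base of the RNA. Capitals mark GTCCCACATCG, which is the longest stretch that all 4 windows share and matches the plant upstream sequence element, and the TATA motif TATAAA.
U2.5 upstream: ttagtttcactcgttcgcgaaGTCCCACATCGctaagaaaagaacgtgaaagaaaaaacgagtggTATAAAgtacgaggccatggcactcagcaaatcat
U2.3 upstream: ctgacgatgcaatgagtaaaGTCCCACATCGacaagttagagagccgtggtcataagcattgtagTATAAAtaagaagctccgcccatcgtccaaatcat
U2.4 upstream: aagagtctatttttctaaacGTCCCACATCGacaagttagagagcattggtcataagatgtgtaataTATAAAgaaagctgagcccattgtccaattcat
U2.7 upstream: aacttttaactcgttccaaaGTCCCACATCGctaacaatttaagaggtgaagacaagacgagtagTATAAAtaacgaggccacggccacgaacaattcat
The shared stretch began 79 bases before the start in U2.5 and 80 bases before it in the other genes, and TATAAA began 33 bases before it in U2.4 and 35 bases before it in the others. Among the same windows of 36632 annotated genes, GTCCCACATCG occurred in 46 on the sense strand (0.126%) and in 55 on either strand (0.15%), and the 2 motifs do not overlap. TATAAA occurred in 16.0% of the windows on the sense strand, and 29 windows held both. The shared stretch preceded 14 of the 16 full U2 copies. Among these were U2.2 as well as U2.10, U2.10b/12, U2.11 and U2.14, whose annotated U2 IDs had 0 counts in every library. A match says only that these letters are present.

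The libraries held 8519197 to 12360838 counts. Library 3 of gun1 fug1, numbered as in the sample title and called gun1 fug1 3, stood apart from the other 11. Its trimmed-mean-of-M-values (TMM) scaling factor was 0.07228, against 0.7999 to 2.049 elsewhere, and 23881 IDs had no count in it, against 13359 to 16417. The 27435 nuclear protein-coding IDs that overlap no 7SL-like or U2 stretch took 1.2% of its counts (95% Wilson interval 1.191 to 1.203%) and 12.3 to 28.3% in the others. With the 9 protein-coding IDs that do overlap such a stretch, the share was 24.1% in it and 13.4 to 29.1% in the others. Results are given with and without it. The mean TMM-scaled CPM (counts per 1000000) of GUN1 were 34.9 and 28.3 in wild type and fug1, against 8.53 and 8.99 in gun1 and gun1 fug1. For FUG1 they were 35.5 and 21.8 in wild type and gun1, against 8.73 and 11.3 in fug1 and gun1 fug1. Nothing in the labels says that replicates were grown separately, so p-values measure the spread between these libraries, which may be technical. Intervals cover counting error only.

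U2.5, whose annotated locus is the RNA alone, had 71, 75 and 67 counts in the wild-type libraries 1, 2 and 3. It had 89, 295 and 218 in gun1, 188, 113 and 96 in fug1, and 275, 296 and 2085 in gun1 fug1. All 9 mutant libraries lay above all 3 wild-type ones, gun1 and fug1 overlapped, and gun1 fug1 3 stood far above the rest. In CPM of the library total, wild type had a mean of 6.57 ± 0.812, gun1 one of 19.9 ± 10.4, fug1 one of 13.4 ± 6.25 and gun1 fug1 one of 80.6 ± 86.9 (SD, n = 3 each). Without gun1 fug1 3 the gun1 fug1 mean was 30.5 ± 6.04 (n = 2).

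U2.3, on chromosome 3 like U2.4, had 23, 31 and 22 counts in wild type and 39, 106 and 103 in gun1. It had 57, 23 and 41 in fug1 and 99, 103 and 859 in gun1 fug1. The second fug1 library lay among the wild-type ones in raw count, while every gun1 and gun1 fug1 library lay above them. Means in CPM of the library total were 2.36 ± 0.616, 8.22 ± 3.96, 4.03 ± 1.99 and 32.0 ± 36.8 for wild type, gun1, fug1 and gun1 fug1 (SD, n = 3 each), and 10.8 ± 1.88 for gun1 fug1 without gun1 fug1 3 (n = 2).

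U2.4 had the lowest count of the 4 genes in all 12 libraries together (700), though not in each library, since U2.7 was lower in some mutant ones. It had 7, 15 and 5 in wild type and 33, 67 and 36 in gun1. In fug1 it had 36, 23 and 20, and in gun1 fug1 71, 38 and 349. No mutant library overlapped the wild-type ones. The group means were 0.844 ± 0.547, 4.45 ± 1.81, 2.65 ± 1.12 and 13.8 ± 14.3 CPM of the library total in the same order (SD, n = 3 each), and 5.61 ± 1.63 for gun1 fug1 without gun1 fug1 3 (n = 2).

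U2.7, the member least like U2.5 in sequence, had 13, 21 and 10 counts in wild type, 16, 61 and 44 in gun1 and 34, 21 and 22 in fug1. In gun1 fug1 it had 55, 57 and 723. The first gun1 library lay inside the wild-type range, and the second fug1 library equalled the highest wild-type count. Its means were 1.37 ± 0.605, 4.0 ± 2.27, 2.57 ± 0.972 and 24.9 ± 32.7 CPM of the library total (SD, n = 3 each), and 5.97 ± 1.03 for gun1 fug1 without gun1 fug1 3 (n = 2).

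**Figure D2:**
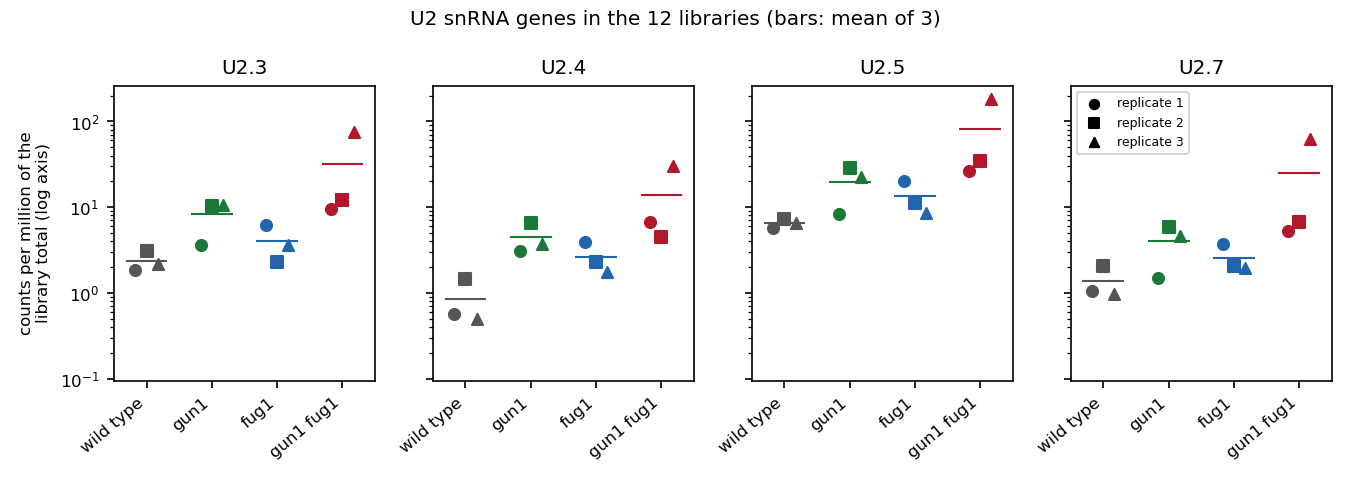
Level in CPM of the library total (log axis) of U2.3, U2.4, U2.5 and U2.7 in the 12 libraries, by genotype, with the replicate as the marker shape and a bar at the mean of 3. Library gun1 fug1 3 (red triangle) is the highest point in every panel, and the wild-type points are the lowest group except for single overlapping gun1 and fug1 libraries.

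The order of the levels by group mean, from wild type through fug1 and gun1 to gun1 fug1, was the same for all 4 genes on this scale. With TMM the U2.5 means of fug1 and gun1 were 16.1 and 16.0 CPM. Between fug1 and gun1 the libraries overlapped for every gene, and so did those of gun1 and gun1 fug1. On library totals, 3 genes (not U2.7) had every gun1 library above every wild-type one, which 2.41% of the 15371 tested genes also had. U2.4 and U2.5 had this for fug1, against 1.88% of tested genes, and all 4 genes for gun1 fug1, against 0.306%, or 10.5% without gun1 fug1 3. With TMM the numbers were 3 genes for gun1 (14.8% of tested genes), 4 for fug1 (21.1%) and 4 for gun1 fug1 (13.8%, or 28% without gun1 fug1 3). All 4 genes had every gun1 fug1 library above every fug1 one on library totals (0.41%, or 54.8% without gun1 fug1 3), and 0 had this with TMM (7.28%). Since the genes were chosen with these contrasts known, nothing is read from these counts. In whole seedlings, more cells that hold an RNA and more of it per cell cannot be told apart.

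Per kilobase of the U2 RNA, U2.5 had the highest level in wild type, at 33.7 ± 4.17 CPM of the library total per kilobase, followed by U2.3 at 12.1 ± 3.16, U2.7 at 7.01 ± 3.1 and U2.4 at 4.35 ± 2.82 (SD, n = 3 each). The last 2 lie within their spread of each other. Per kilobase of annotated locus the values of U2.5 and U2.3 were 33.7 and 2.71, since the U2.3 locus extends beyond the RNA. The share that U2.5 took of the summed counts of the 4 genes stayed between 50.3 and 64.4% over all 12 libraries, and in gun1 fug1 3 it was 51.9%. U2.3 took 12.8 to 25.7%, U2.4 4.81 to 18.6% and U2.7 9.04 to 18.0%, with the highest U2.7 share in that same library. These shares varied by far less than the sum of the U2 counts, which ran from 104 to 4016. How reads that match several U2 copies were counted is not given, so the shares may in part reflect shared reads.

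A quasi-likelihood model (edgeR, TMM scaling, genotype as the only factor) was fitted to all 15371 genes that passed a filter on low counts, and all 4 U2 genes passed it. In gun1 against wild type the log2 differences of U2.3, U2.4, U2.5 and U2.7 were 2.38, 2.99, 2.19 and 2.14, a median 4.87-fold higher level. In fug1 they were 1.93, 2.80, 2.19 and 2.06, a median of 4.37-fold. The median log2 difference of all tested genes was 0.02 in the first comparison and 0.0 in the second. The standard errors of the members ran from 1.63 to 2.09 in gun1 and from 1.64 to 2.2 in fug1.

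In gun1 fug1 against wild type the same genes had log2 differences of 8.07 ± 2.12, 8.13 ± 2.13, 7.91 ± 2.05 and 8.59 ± 2.31 (± SE). These came down to 2.77 ± 0.52, 3.33 ± 0.51, 2.79 ± 0.60 and 2.7 ± 0.53 without gun1 fug1 3, a median 6.87-fold. Against gun1 the values were 5.70, 5.15, 5.72 and 6.45 with all libraries and 0.40, 0.35, 0.61 and 0.58 without gun1 fug1 3. Against fug1 they were 6.15, 5.34, 5.71 and 6.53 with it and 0.85, 0.53, 0.60 and 0.65 without it. With TMM, the excess of the double mutant over either single mutant was thus at most 0.85 in log2 once that library was left out. On library totals of the same 11 libraries the values against gun1 were 0.39, 0.34, 0.62 and 0.58, and those against fug1 were 1.42 ± 0.42, 1.11 ± 0.40, 1.2 ± 0.47 and 1.22 ± 0.43 (± SE). Of the latter U2.3 alone was called at an adjusted p below 0.05 (edgeR), where 17.1% of tested genes were. The comparisons with wild type share its 3 libraries, and those with gun1 fug1 share that group.

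The same model called genes where the Benjamini-Hochberg adjusted p, taken over all genes tested, was below 0.05. Of the 4 U2 genes it called 0 for gun1 against wild type, where 5.94% of tested genes were called, 0 for fug1 (17.8%) and 4 for gun1 fug1 (21.9%). It called 0 of 4 for gun1 fug1 against gun1 (3.09% of tested genes) and against fug1 (0.267%). Without gun1 fug1 3, 16201 genes were tested and the standard errors of the members fell to between 0.48 and 0.58 for gun1 and fug1 against wild type. Then 3 of the 4 were called in gun1 (all but U2.5, against 9.81% of tested genes), 4 in fug1 (22.9%), 4 in gun1 fug1 (25.4%), and 0 in gun1 fug1 against gun1 (5.06%) and against fug1 (0.716%). On leaving out any single wild-type library from the fit to 12, the 4 calls for gun1 fug1 became 0. They also became 0 with a replicate block, although whether the replicate numbers pair libraries is not known, and 3 with no filter on low counts. The choice of the members used these contrasts, and the counts stand beside the background without being read as evidence.

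Scaling changed the size of these differences. With library totals in place of TMM and without gun1 fug1 3, the 4 genes had log2 differences of 1.80, 2.4, 1.60 and 1.55 for gun1 against wild type, 0.77, 1.64, 1.02 and 0.90 for fug1, and 2.19, 2.75, 2.21 and 2.12 for gun1 fug1. On that scale the median of all tested genes was -0.54, -1.16 and -0.62, so the U2 genes lay above it in all 3. In this fit 4, 1 and 4 U2 genes were called in these comparisons, where 35.4, 74.6 and 41.0% of tested genes were called, and 0 and 1 for gun1 fug1 against gun1 and against fug1 (3.4 and 17.1%). The share of counts in plastid-encoded genes, which library totals carry into every other gene, ran from 68.5 to 73.1% over the wild-type libraries, from 75.0 to 76.7% over gun1, from 81.7 to 84.4% over fug1 and from 53.4 to 70.9% over gun1 fug1. The part of that share in the U2 differences was not tested.

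**Figure D3:**
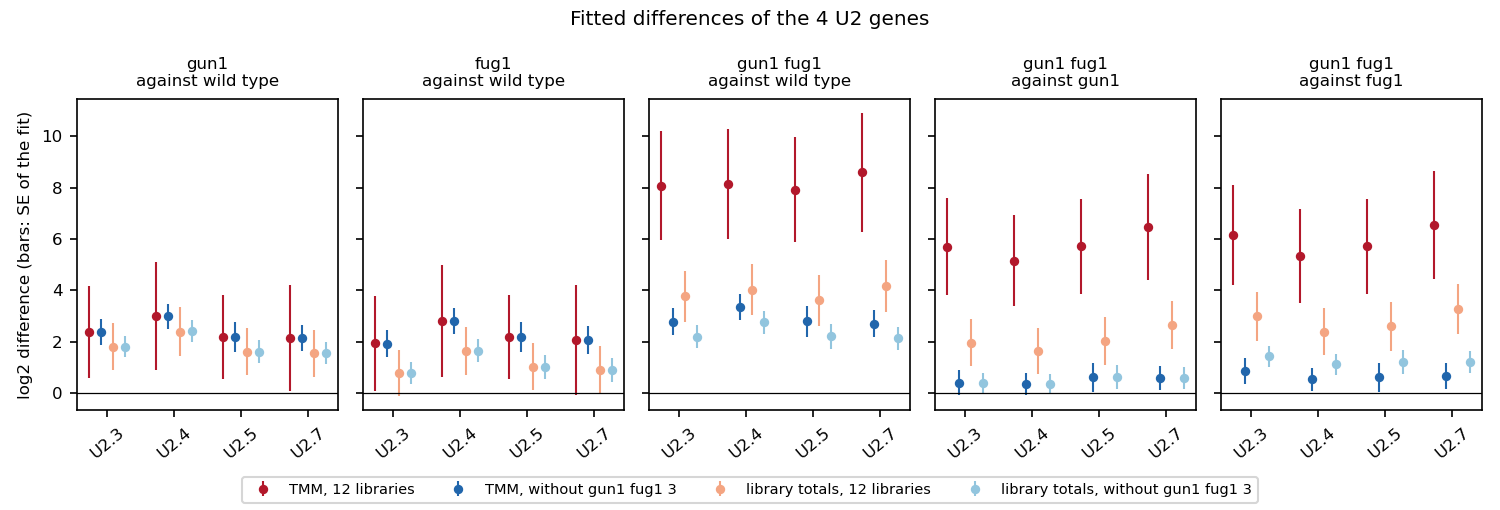
Fitted log2 differences (vertical axis, bars are the SE of the fit) of the 4 U2 genes in 5 comparisons, with TMM or library totals and with or without gun1 fug1 3. In the 3 comparisons that include gun1 fug1 the values with all 12 libraries lie above those without it on either scale, and in the other 2 the values with and without it coincide while the bars shrink.

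The other U2 copies of the genome were compared with the 4 genes through the IDs that overlap them. Of 23 IDs annotated as U2, 13 hold a U2 stretch, and 10 lie 1052 to 17034 bases away from the nearest one. Among these displaced IDs, a second ID named U2.3 (AT3G09005) had 47 counts in all and the others 0 to 2. Of the 13, U2.9, U2.10, U2.10b/12, U2.11 and U2.14 had 0 counts in every library and U2.17 had 1 in all.

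U2.1 (AT1G05273) and U2.6 (AT3G56705) were counted much as the 4 genes were. The wild-type libraries held 12, 24 and 5 counts of U2.1 and those of gun1 fug1 74, 65 and 405. For U2.6 the same libraries held 20, 10 and 5 and then 55, 58 and 348. Without gun1 fug1 3, their log2 differences in gun1 fug1 were 3.11 and 3.08, inside the 2.7 to 3.33 of the 4 genes. AT1G16820, a protein-coding gene on the opposite strand, overlaps U2.1. The ratio of the U2.1 count to the AT1G16820 count was 0.667 to 1.09 over all libraries, so their reads cannot be told apart either. A U2 copy in the protein-coding gene AT2G20410 and one in AT5G09935, annotated as a miscellaneous RNA, had 544 and 552 counts in gun1 fug1 3 and at most 120 and 90 elsewhere.

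In raw counts and on library totals, U2.2 (AT3G57645) did not share the excess in gun1 fug1 3. The wild-type libraries held 3, 7 and 0 counts of it, those of gun1 1, 22 and 32, those of fug1 26, 11 and 15, and those of gun1 fug1 23, 31 and 14. Its log2 differences from wild type without gun1 fug1 3 were 3.07 ± 1.08, 3.59 ± 1.08 and 3.75 ± 1.10 (± SE) for gun1, fug1 and gun1 fug1. With TMM and all 12 libraries the value for gun1 fug1 was 4.4 ± 1.33, so the contrast with the 4 genes depends in part on the scale. As a share of the library total, its level in gun1 fug1 3 was 0.416 of the mean of the other 2. For U2.3, U2.4, U2.5 and U2.7 the same ratio was 6.92, 5.39, 5.93 and 10.5. U2.2 is 93.8% identical to U2.5, and 115 of its 146 windows of 50 bases and all 96 of 100 bases are its own, more than in any of the 4 genes. AT5G09065, a noncoding RNA whose U2 copy has 146 of 146 such windows of its own, had 161 counts in that library and 1 to 18 elsewhere.

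**Figure D4:**
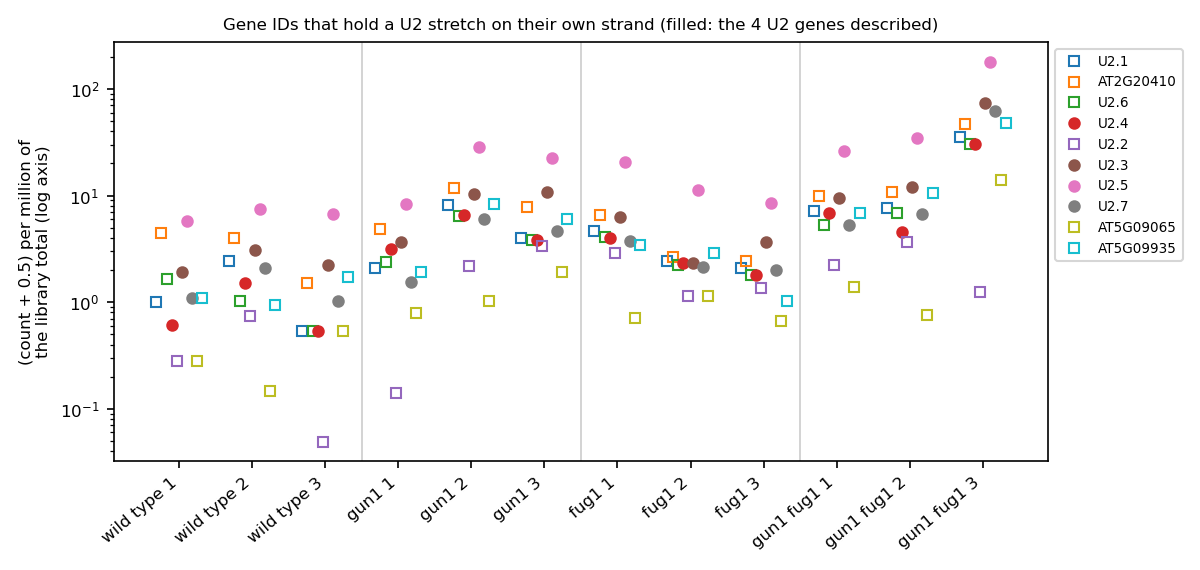
Level, in CPM of the library total after adding 0.5 to the count, on a log axis, of the 10 IDs with over 100 counts that hold a U2 stretch on their own strand, in the 12 libraries. All but U2.2 are highest in gun1 fug1 3, where U2.2 had 14 counts.

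Genes with a level pattern like that of U2 across the 12 libraries included copies of 7SL, the RNA of the signal recognition particle, which targets nascent proteins to the endoplasmic reticulum. For each gene, likeness was the Pearson correlation of its log2 level (TMM, prior count 2) with the mean log2 level of the 4 U2 genes, given as a description. Over 12 libraries and 15358 genes, the 5 highest values were those of AT2G09250 (0.995), RR3 (AT2G41310, 0.995), AT2G31141 (0.993), BXL3 (AT5G09730, 0.991) and AT4G04595 (0.99). All 5 overlap a stretch similar to the last 300 bases of AT7SL-1. RR3 is known as a response regulator and BXL3 as a beta-xylosidase, and their reads cannot be told apart from those of the 7SL-like stretches that they overlap. The points share the TMM factor of each library, and gun1 fug1 3 lies far from the rest. The lowest values were those of TBL27 (AT1G70230, -0.992), AT5G01090 (-0.987) and AT4G23820 (-0.985), which had 0, 0 and 4 counts in that library.

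Over the 11 other libraries and 16188 genes the order changed. The highest values were those of AT5G53740 (0.981), AT3G61198 (0.979), U3B (AT5G53902, 0.976), AT5G53905 (0.976) and AT5G08155 (0.974). U3B encodes the small nucleolar RNA (snoRNA) U3, which takes part in ribosomal RNA processing, and AT5G53905 overlaps it. All 5 had fewer counts in gun1 fug1 3 than in the other gun1 fug1 libraries, and U3B had 112 counts there, against 731 and 732 in the other gun1 fug1 libraries. AT2G09250 and RR3 then ranked 6 and 7 (0.974 and 0.973), and AT7SL-1 itself went from 0.977 over 12 libraries to 0.9 over 11. The lowest values were those of TBL27 (-0.976), AT1G10682 (-0.959) and AT5G46710 (-0.958). Between the 4 U2 genes the correlation was 0.979 to 0.996 over 12 libraries and 0.92 to 0.986 over 11.

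Set against 7SL, the U2 sum had nearly the same mean in each genotype. The 6 IDs with a 7SL-like stretch and appreciable counts, RR3 left out because it overlaps AT2G09250, took 0.98 to 1.16% of the counts in wild type, 2.37 to 4.07% in gun1 and 1.42 to 2.76% in fug1. In gun1 fug1 they took 5.87, 4.89 and 29.4% (95% Wilson interval of the last 29.39 to 29.44%). Per 10000 counts of these IDs, wild type had 10.5 ± 1.42 counts of the 4 U2 genes, gun1 10.8 ± 4.08, fug1 10.9 ± 2.71 and gun1 fug1 10.6 ± 2.15 (SD, n = 3 each). The 12 libraries ran from 6.99 to 15.1, and gun1 fug1 3 had 11.8. Its library total still holds 1801093 counts of RR3 beside 1774094 of AT2G09250. Reads counted for both would lower the 29.4% and every CPM of the library total there. The 7SL IDs were picked with their likeness to U2 in these libraries known, so the even ratio partly restates that choice and is a description.

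Set against other RNAs, gun1 fug1 3 left the range of the other 11. Per 1000 snoRNA counts the U2 sum was 13.9 to 38.3 in 11 libraries and 6920 in it, where the 287 snoRNA IDs had 580 counts, against 7207 to 21828 elsewhere. Per 1000000 counts of the protein-coding IDs that overlap no 7SL-like or U2 stretch it was 32.6 to 53.8 in wild type, 84.2 to 309 in gun1, 113 to 271 in fug1, 257 and 307 in the first 2 gun1 fug1 libraries and 29100 in gun1 fug1 3. With the 9 overlapping IDs counted as well, it was 1450 in gun1 fug1 3 and 31.7 to 267 in the other 11. The 14 IDs of U1, the snRNA that recognises the 5′ splice site, had 18 to 70 counts per library and 40 in gun1 fug1 3. All 59 snRNA IDs other than U2 together had 39 to 102 counts, and 68 in it. Whether 7SL, the library's protein-coding share or its depth had a part in the U2 excess was not tested.

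**Figure D5:**
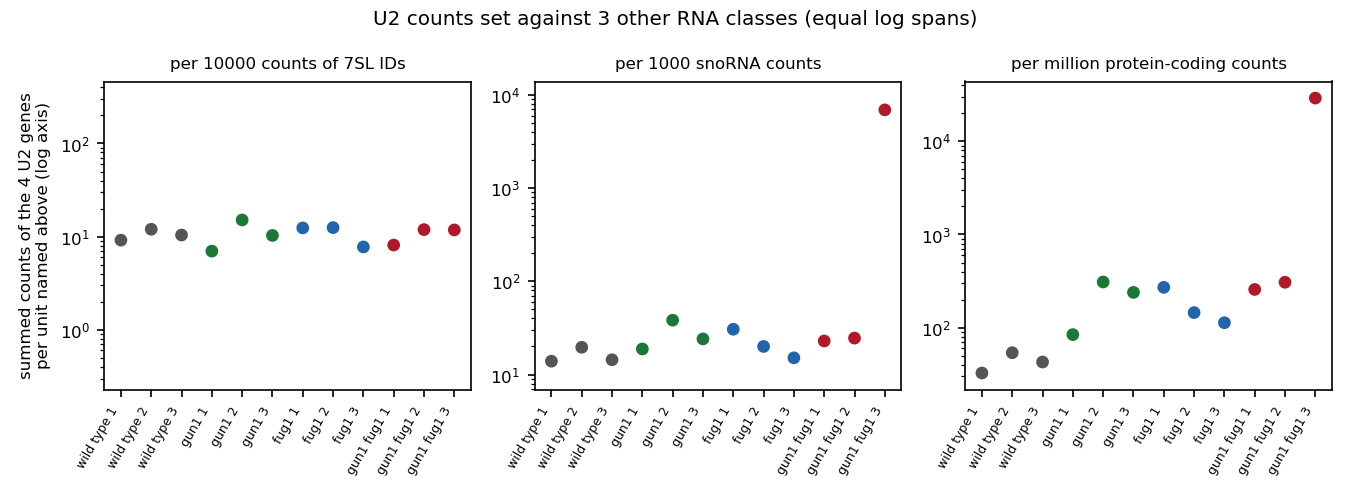
Summed counts of the 4 U2 genes in each library per 10000 counts of the 7SL IDs, per 1000 snoRNA counts and per 1000000 counts of protein-coding IDs that overlap no 7SL-like or U2 stretch, on log axes of equal span, coloured by genotype. The 7SL ratio stays within 6.99 to 15.1 in all 12 libraries, while in the other panels gun1 fug1 3 lies far above the rest.

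Of 16 genes for proteins of the U2 particle, 15 were tested. For fug1 as for gun1 fug1 against wild type 2 rose and 1 fell, beside 17.8% and 21.9% of all tested genes called, and in the other 3 comparisons edgeR called 0, with 3, 3 and 2 at an unadjusted p under 0.05. The list medians of the 3 mutants, in the order gun1, fug1 and gun1 fug1, were -0.08, -0.14 and -0.03 in log2, beside 0.02, 0.0 and -0.03 for all genes. Without gun1 fug1 3 the counts were 2 higher and 2 lower in fug1 and 2 and 1 in gun1 fug1, beside 22.9% and 25.4% of all tested genes. The genes called higher were SAP130a (AT3G55200) and SAP130b (AT3G55220), a near-identical pair for the 130-kDa subunit of SF3b whose reads may be shared. SAP130b was higher by 1.03 ± 0.28 (log2 ± SE, adjusted p = 0.0145) in fug1 and by 1.13 ± 0.30 (0.00906) in gun1 fug1, but on library totals, where no gene of this list was called, the values were -0.12 and -0.06. SAP130a was higher by 1.03 ± 0.31 (edgeR adjusted p = 0.0235) in fug1 and by 1.19 ± 0.32 (0.0102) in gun1 fug1, and on library totals by -0.12 and 0.04. The lower genes were AT5G12190, for the branch-site protein p14, in fug1 (-1.34 ± 0.45, edgeR adjusted p = 0.0426) and U2A' (AT1G09760), which binds a stem of the U2 RNA, in gun1 fug1 (-1.08 ± 0.31, adjusted p = 0.0169).

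Among the 5 genes for U2AF and SF1, the factors that recognise the branch site and the 3′ splice site before U2 does, edgeR called 0 in each of the 5 comparisons, with 0 to 2 at an unadjusted p under 0.05. With gun1 fug1 3 left out, 1 fell in gun1, 2 rose in fug1 and 1 rose in gun1 fug1. Of all tested genes 9.81%, 22.9% and 25.4% were then called in either direction. ATU2AF65A fell by 0.59 in gun1 (log2, edgeR adjusted p = 0.0412), and ATU2AF35A was 0.55 higher in fug1 (adjusted p = 0.0331) but at -0.59 on library totals of the same 11 libraries. For the Sm ring and snRNP assembly, 13 of 17 genes were tested, with 0 called in gun1 (1 at an unadjusted p under 0.05), 1 higher in fug1, and 1 higher and 3 lower in gun1 fug1, beside 5.94%, 17.8% and 21.9% of all tested genes. Without gun1 fug1 3, 14 were tested, and 1 and 2 were called higher in gun1 and fug1, and 1 higher and 3 lower in gun1 fug1. The shares of all tested genes called were then again 9.81%, 22.9% and 25.4%. smB (AT4G20440) rose by 1.01 ± 0.22 in fug1 (adjusted p = 0.00421) and by 1.09 ± 0.23 in gun1 fug1 (0.00204), but lay at -0.14 and 0.02 on library totals. SNRNP-G (AT2G23930, -1.54), the SmE gene AT2G18740 (-1.69) and the SmD2 gene AT3G62840 (-0.93) fell in gun1 fug1. Of the 10 genes for snRNA transcription and 3′ processing 6 were tested, and edgeR called 0 in every comparison, with at most 1 at an unadjusted p under 0.05.

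Of the other RNA classes, 44 of 287 snoRNAs were tested, and against wild type 11 rose in gun1, 18 in fug1 and 22 in the double mutant, with 0 called lower. The shares of all tested genes called in either direction were 5.94%, 17.8% and 21.9%. The snoRNA median log2 differences were 1.21, 1.49 and 1.84. On library totals the medians were 0.66, 0.35 and 0.80 with 0 called, and AT3G47348 in fug1 (-0.26) and AT4G39366 in gun1 fug1 (-0.12) lay below wild type. Without gun1 fug1 3, 17, 28 and 33 of 52 tested snoRNAs were called higher. In that fit 9.81%, 22.9% and 25.4% of all tested genes were called in either direction. AT5G08865 had the smallest p, at 2.18 ± 0.26 in gun1 (edgeR adjusted p = 3.25e-05), with 1.92 ± 0.26 for fug1 and 3.01 ± 0.27 for the double mutant. Only 1 snRNA other than U2 passed the filter, U1.5, with log2 differences of 0.43, 0.95 and 2.51, of which 0 were called (edgeR, 1 at an unadjusted p under 0.05). With gun1 fug1 3 left out, U1.5 and U4.2 were tested, and both were called higher in gun1 fug1 (1.55 ± 0.44, adjusted p = 0.0134, and 2.4 ± 0.88, adjusted p = 0.0489). Of nuclear rRNA, 2 of 4 IDs were tested and both rose in gun1 fug1, AT2G01010 by 7.0 ± 0.96 and AT3G41768 by 5.68 ± 1.71. Both were still called when gun1 fug1 3 was left out, at 7.43 ± 0.38 and 6.2 ± 1.67, so their excess was not confined to that library. Whether the step that removed or selected RNA classes, which is not given, had a part in it was not tested.

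With TMM, the group means of the root hair and seed markers were higher in each mutant than in wild type, and shoot markers were not called. The 3 shoot markers (RBCS1A, LHCB1.3 and LHCA1) had a summed 5170 to 5900 TMM-scaled CPM over the wild-type libraries, 4460 to 6800 over gun1, 6690 to 7990 over fug1 and 4260 to 6750 over gun1 fug1, and 0 of 3 were called in any comparison. In CPM of the library total the sums were 9120 to 12100 over wild type, 6060 to 9260 over gun1, 5560 to 6740 over fug1 and 308 to 8540 over gun1 fug1, so that fug1 lay above wild type with TMM and below it on library totals. On library totals without gun1 fug1 3, RBCS1A was at -0.74 (log2, edgeR adjusted p = 0.00379) and LHCB1.3, listed as CAB1, at -0.68 (0.00348) in fug1. The 3 root hair markers (COBL9, EXPA7 and EXPA18) had 0.106 to 1.79 over wild type, 1.79 to 20.2 over gun1, 7.62 to 12.9 over fug1 and 15.4 to 22.5 over gun1 fug1. The 3 seed markers (CRA1, CRU3 and OLEO1) ran from 3.17 to 6.19, 19.7 to 45.8, 19.3 to 34.7 and 38.6 to 69.6 in the same order. Of the root hair markers 1, 2 and 3 were called higher in gun1, fug1 and gun1 fug1, and of the seed markers 2, 3 and 3. The shares of all tested genes called in either direction were 5.94%, 17.8% and 21.9%. The root hair markers had 0 to 15 counts in the wild-type libraries and passed the filter through the mutant ones, so their calls are a description. On library totals the lowest gun1 root hair sum was 2.44, below the highest wild-type one. In CPM of the library total, the lowest gun1 fug1 sums were 1.3 and 5.03, against wild-type ranges of 0.196 to 3.15 and 5.89 to 10.9. Their part in the U2 values was not tested.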

How the data were processed

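For each library the authors deposited 1 table of raw read counts over 36917 gene IDs. Per the submitters' processing notes, Trimmomatic, FastQC, TopHat2 2.1.1 and featureCounts were used with the TAIR10 build. Strand handling, the annotation version, read length and the treatment of reads that match several places are not given in the sources used here. Positions and names of 36632 IDs were taken from RefSeq's annotation of TAIR10.1.

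Libraries were grouped by their genotype label and numbered as in the titles. For gun1 fug1 the numbers in the names of the deposited counts differ from those in the titles. The replicate block used the numbers of the titles. Counts were analysed in R 4.3.3 with edgeR 4.0.16: filterByExpr by genotype, TMM, a robust quasi-likelihood fit to 12 libraries and the F test for 5 comparisons, with calls where the Benjamini-Hochberg adjusted p was below 0.05. The steps were also run on simulated counts with the same dispersion for every gene. Those counts hold no excess confined to a single library, so the run does not bear on the U2 values. U2 and 7SL copies were found with BLAST 2.17.0 (expect value at most 1e-10, 7SL-like stretches of at least 200 bases), and 1 ID of a gene list was left out because it is not annotated as protein coding. Other tools were Biopython 1.88, pandas 2.3.3, numpy 2.4.6 and matplotlib 3.10.9 in Python 3.11.15. Alternatives were RLE factors, library totals, no filter, DESeq2 1.42.0, organelle genes left out, a replicate block and each library left out.

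The members and gene lists were chosen with earlier results of these data known. Named are the 4 members, the other annotated U2 genes, from each list the 2 genes with the smallest p and genes called (examples for the larger lists), the 5 most and 3 least correlated genes, GUN1 and FUG1. The U2 copies outside annotated U2 genes, U4.2, ATU2AF35A and the 7SL IDs were added after their values were seen.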

Additional observations from a re-analysis of the deposited data

How the results depend on the processing

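The direction of the U2 differences held under every alternative run. The members' median log2 difference moved by more than the spread between replicates (2.08, pooled SD of their mean log2 level) in gun1 fug1 against wild type, from 8.10 to 3.89 with library totals and 2.2 with library totals and gun1 fug1 3 left out, which was chosen after the data were seen. Against gun1 it went from 5.71 to 1.99 and 0.48, and against fug1 from 5.93 to 2.79 and 1.21. That spread takes in gun1 fug1 3, which widens it. With library totals, smaller moves were from 2.29 to 1.7 in gun1 and from 2.13 to 0.96 in fug1, both against wild type. Leaving out 1 library at a time gave ranges of 1.88 to 2.65 (gun1), 1.68 to 2.38 (fug1), 2.78 to 8.71 (gun1 fug1), 0.49 to 6.26 (against gun1) and 0.62 to 6.49 (against fug1). The 4 U2 calls in gun1 fug1 were 0 without any single wild-type library, 3 with no filter, and could not be made by DESeq2, whose adjusted p was NA for all 4. The cause was not tested.

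Genes called numbered 913, 2739, 3362, 475 and 41 in the 5 comparisons (gun1, fug1 and gun1 fug1 against wild type, then gun1 fug1 against gun1 and against fug1). With library totals they were 1, 8, 174, 5 and 1, and with gun1 fug1 3 also left out 5731, 12092 and 6643 against wild type and 2778 against fug1. With no filter they were 1464 in gun1, 794 against gun1 and 157 against fug1, and with DESeq2 83 against fug1. Leaving out 1 library gave 154 (without wild type 2) to 1753 (without gun1 1), 965 (without wild type 2) to 3714, 1742 (without gun1 fug1 2) to 4107, 96 to 820 and 17 to 116, where the last 2 minima are without gun1 fug1 1 and the last 4 maxima without gun1 fug1 3. Deviations from the group mean had correlations of -0.082 to 0.36 between like-numbered libraries. The highest were 0.315 and 0.36, for wild type and gun1 at numbers 1 and 3. Unlike-numbered libraries were not compared, so whether the numbers pair libraries is not known. With a replicate block the counts were 798 against gun1 and 86 against fug1, and 0 U2 genes were called in gun1 fug1.

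Directions reversed on library totals for SAP130b (-0.12 in fug1, -0.06 in gun1 fug1), SAP130a (-0.12), smB (-0.14) and the snoRNA AT3G47348 (-0.26) in fug1, and the snoRNA AT4G39366 (-0.12) in gun1 fug1. With gun1 fug1 3 also left out, fug1 gave SAP130b -0.12, SAP130a -0.10, ATU2AF35A -0.59, smB -0.15, RBCS1A -0.74, CAB1 -0.68 and AT3G47348 -0.25. These values are relative to the library total, where the median of all genes was -1.16. Low U2 counts in wild type, down to 5, limit the precision of every ratio to that group.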
